A study of Drosophila melanogaster with 18 samples.

Results

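MLX males were compared with CDX males, which makes 12 of the 18 arrays of the study, 6 per treatment and 2 from each of 3 populations. The arrays were chosen by their treatment labels alone, and all probe sets other than the Affymetrix controls were examined. All flies derived from the LHm laboratory population of *Drosophila melanogaster*, and RNA came from the whole body of males at day 14 from egg, after 4 days as adults. In MLX males the X-chromosome had been handed from father to son over many generations, with some males brought in from a recombination box, in which the X also passes through females. In CDX males the X had been inherited from a Control father once. The mothers of both were DX females, whose X-chromosomes are joined at the centromere, so that sons receive the X from the father and the Y from the mother. MLX and CDX males therefore share the type of mother and the source of the Y, and they differ in the history of the X and in the population that the father's autosomes came from. These can not be told apart in this comparison. Control males, which had an X from the mother, are given only for orientation. The labels name 1 male per array whereas the methods describe pools of males, and in either case the arrays of a population share its history, so that the populations are the replicates.

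The X-chromosome spends most of its history in females, where it is present in a double dose, and selection on it therefore weighs its effects in females more than those in males. When it passes only through males, alleles that favour males can spread even if they harm females. In males the single X is transcribed at a raised level by the dosage compensation complex, and the small chromosome 4, which derives from a former X, has a regulatory protein of its own. The Y carries few genes, most of them active in the testis. Whole-body RNA mixes all tissues, and a gene can differ because its cells make more or less of the transcript or because the tissue takes a different share of the body, which cannot be told apart here.

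Expression is given as log2 values after robust multi-array averaging (RMA) by the authors, in which a difference of 1 is a doubling of the signal. Values lay between 2.64 and 15.33, and the medians of the 18 arrays lay between 6.94 and 7.06. Of 18769 probe sets tested, 13647 were named for 1 gene and 13543 of these could be placed on a chromosome arm, 2188 of them on the X. Male tissues were represented in the MLX and CDX arrays, since the accessory gland genes *SP*, *Acp26Aa* and *Acp36DE* and the testis genes *Mst87F* and *betaTub85D* lay between the 98.1 and the 99.8 percentile of each array. The other testis markers were lower, *dj* between the 76.0 and the 79.9 percentile and *bam* between the 26.5 and the 34.4. Genes of yolk and eggshell, which are made in females, were also measured, several of them above the dimmest probe sets on every array. Their mean over 23 genes was 6.04 ± 0.63 in MLX (SD, n = 6 arrays, range 5.60 to 7.16) and 6.26 ± 0.54 in CDX males (range 5.63 to 6.94), against a range from 5.57 to 6.62 in Control males. Of the 23 genes 1 was higher and 22 were lower in MLX than in CDX males, and 0 had an unadjusted p under 0.05 from limma. The mean over the 23 genes differed by -0.23 (two-sided exact permutation p = 0.496 over arrays and 0.4 over populations). It could vary between the 2 arrays of a population, at 5.60 and 7.16 in MLX population 2 and at 6.94 and 5.63 in CDX population 2. In MLX population 1 the arrays were close, at 5.73 and 5.67. *Vm32E*, one of the defining eggshell genes, was near the bottom of some arrays, at the 5.47 percentile. *Yp1*, a yolk protein gene, lay between the 34.7 and the 78.2 percentile, and the eggshell gene *Cp15* between the 43.1 and the 83.4. The difference between signal at the 3' and at the 5' end of 4 control transcripts, a measure of RNA integrity and of the length of the labelled copies, was 1.37 ± 0.10 in MLX and 1.48 ± 0.09 in CDX males (SD, n = 6 arrays). It differed by -0.11 (two-sided exact permutation p = 0.0931 over arrays and 0.3 over populations).

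MLX and CDX males had closely similar expression, and no transcript passed the test between them. The number of probe sets at an adjusted p under 0.05 was 0 of 18769 (0%), by limma with populations as a random block and Benjamini-Hochberg adjustment. The smallest adjusted p was 0.353, for *CG3603*, and the next was 0.933. At an unadjusted p under 0.01 there were 85 probe sets (0.453%), of which 33 were higher (0.176%) and 52 lower in MLX males (0.277%), where 188 would be given by chance. At an unadjusted p under 0.05 there were 490 (2.61%), 269 higher (1.43%) and 221 lower in MLX males (1.18%), where 938 would be given by chance. The 3 population means of MLX lay above all 3 of CDX for 588 probe sets (3.13%) and below all of them for 564 (3.00%). All 6 arrays were separated in 30 probe sets, 18 higher and 12 lower in MLX, or 0.160% of those tested. Differences were small, with 90% of them between -0.12 and 0.12 on the log2 scale around a median of 0.0015, and a median standard error of 0.07. Only 37 probe sets differed by more than 0.5 and 4 by more than 1.

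The transcript with the smallest p was that of *CG3603*, an X-linked gene known by its annotation number. Its log2 expression was 9.24 at the lowest, 9.46 at the median and 9.62 at the highest of the MLX arrays, against 8.71, 9.01 and 9.17 in CDX and 8.99, 9.08 and 9.24 in Control males. Every MLX array was thus above every CDX array, while Control males lay close to CDX males. The difference between MLX and CDX was 0.50 (standard error 0.09), or a 1.42-fold higher signal. *CG15765*, also on the X, had 6.48, 6.60 and 6.77 in MLX and 6.09, 6.31 and 6.44 in CDX males, so that MLX was higher by 0.34 (standard error 0.07, adjusted p = 0.948 from limma). Here too the 6 arrays of MLX lay above the 6 of CDX, and Control males were in between, with a median of 6.46. A second probe set of *CG15765*, which was dim, differed by only 0.02. In *egh*, an X-linked gene for an enzyme that builds the sugar chains of glycolipids, the CDX arrays were particularly close to each other. They ran from 9.41 to 9.46 with a median of 9.43, against MLX arrays from 9.49 to 9.69 with a median of 9.61, and Control arrays from 9.43 to 9.62. The difference was 0.17 (standard error 0.05), and the brighter of its probe sets went the same way by 0.11.

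**Figure D1:**
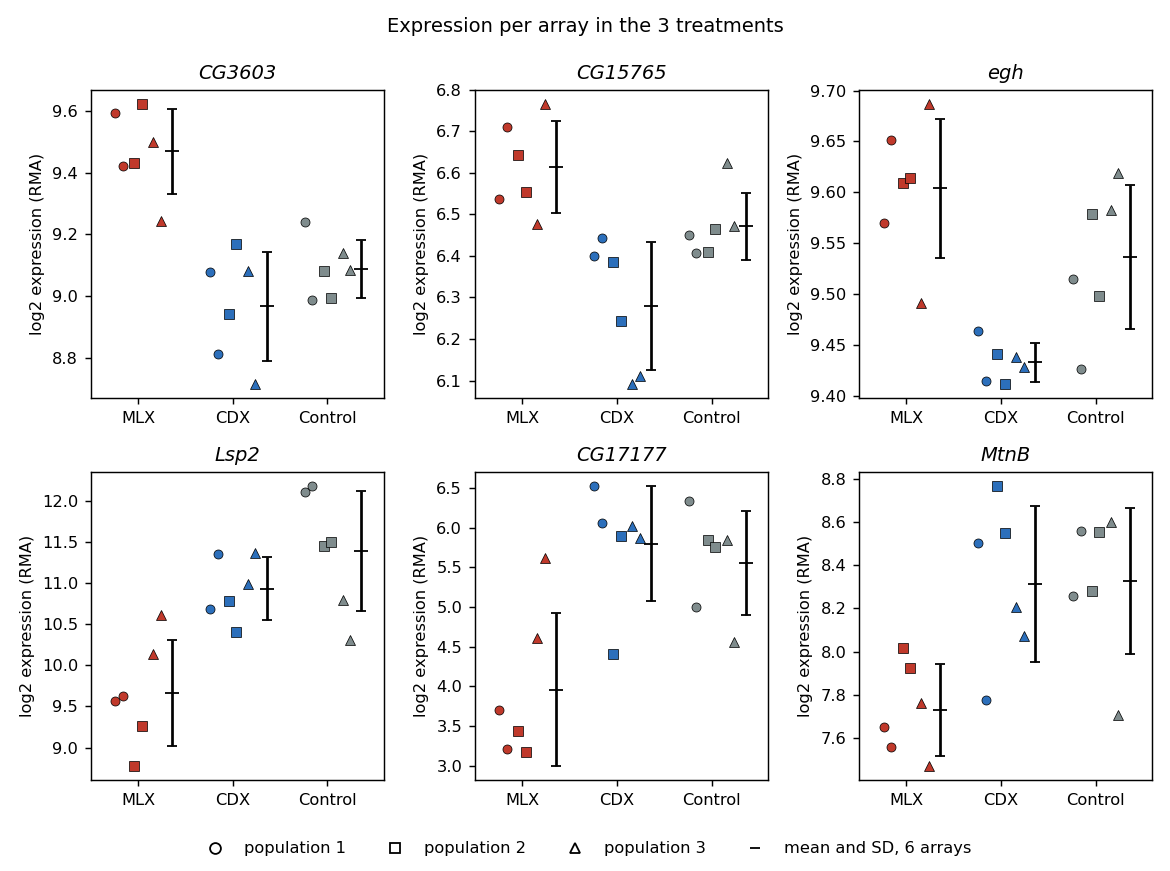
Log2 expression (y axis) of 6 genes in each array of MLX, CDX and Control males (x axis), with symbols for the populations and bars for the mean and SD of 6 arrays. The 6 MLX arrays lie above the 6 CDX arrays for *CG3603*, *CG15765* and *egh*, whereas single arrays of the treatments overlap for *Lsp2*, *CG17177* and *MtnB*.

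Among transcripts lower in MLX males, *Lsp2* and *CG17177* differed by the largest amounts of those with 1 gene. *Lsp2*, a larval serum protein that serves as an amino acid store, had 8.77, 9.59 and 10.62 at the lowest, median and highest MLX array, against 10.41, 10.88 and 11.37 in CDX and 10.31, 11.47 and 12.18 in Control males. The population means were 9.59, 9.02 and 10.38 in MLX and 11.02, 10.60 and 11.17 in CDX males, so that the populations did not overlap although 1 MLX array entered the range of CDX. The difference was -1.27 (standard error 0.32), and the signal in CDX was 2.41-fold that in MLX males. *CG17177* had 3.18, 3.57 and 5.62 in MLX and 4.40, 5.96 and 6.53 in CDX males, a difference of -1.84 (standard error 0.44). Its lower MLX values were near the floor, as the lowest value on any array was 2.64, so the size of this difference is uncertain. Of the MLX arrays 4 were below all CDX arrays, and the remaining ones, both of population 3, averaged 5.11, which was close to the 5.15 of CDX population 2. Another large difference, at -1.90 (standard error 0.39), was that of a probe set which the annotation lists for more than 1 gene and which has no name here. It had 6.07, 6.72 and 8.47 in MLX and 8.41, 9.09 and 9.61 in CDX males. MLX population 1 was unlike the others, with 8.43 against 6.40 and 6.64 in populations 2 and 3. It was the MLX population nearest to CDX, where the population means were 9.04, 8.77 and 9.36. Without it the difference was -2.54 (adjusted p = 0.00374 from limma). Leaving it out must enlarge the difference, so this value is not a test. Control population means were 8.90, 7.70 and 9.18, so that Control population 2 lay within the range of MLX. The metallothionein *MtnB*, which binds metal ions, had 7.47, 7.71 and 8.02 in MLX and 7.78, 8.35 and 8.77 in CDX males, with 1 low CDX array inside the range of MLX. With all arrays none of these 4 passed the test, the adjusted p from limma being 0.933 for the unnamed probe set and 1.00 for *Lsp2*, *CG17177* and *MtnB*.

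Of 11982 genes, 56 had an unadjusted p under 0.01 and population means that did not overlap, 24 of them higher and 32 lower in MLX males. Over all 18769 probe sets, 72 met both conditions, out of 85 at an unadjusted p under 0.01, where 188 would be given by chance. None of the genes is thus shown to differ between the treatments. Of the 56 genes, 36 are named, being the 12 with the largest difference in each direction and all those on the X and chromosome 4. Control males were not used to choose them. The Control mean lay between those of MLX and CDX in 31 of the 36, beyond CDX in 5 and beyond MLX in 0. It was nearer to CDX in 20 and nearer to MLX in 16. Control males lay beyond CDX for *RN-tre*, *CG34171*, *Lsp2*, *MtnB* and *CG1773*. The 6 arrays of each treatment were apart in 9 genes, *CG3603*, *CG15765*, *skd*, *rdx* and *egh* higher and *Cyp4s3*, *fd102C*, *Tango4* and *CG1575* lower in MLX males. As the genes were chosen by this contrast, these counts describe them and are not a test.

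The named genes higher in MLX males, none of which passed the adjusted test, had several roles. In transport within the cell were *RN-tre*, which switches off Rab GTPases, at a difference of 0.40 (standard error 0.11), and *Rbcn-3B*, a regulator of the proton pump of vesicles, at 0.16. The cytoskeleton was represented by *spir*, an actin nucleator, at 0.25, and *nwk*, an adaptor that shapes membranes at the synapse, at 0.23. *skd* is a subunit of the kinase module of the Mediator complex, which links transcription factors to RNA polymerase, and had 6.52 ± 0.09 in MLX against 6.21 ± 0.10 in CDX males (SD, n = 6 arrays). Its second probe set differed by 0.07. *rdx*, an adaptor for protein degradation that acts in Hedgehog signalling, was at 0.24, with -0.01 in a second, brighter probe set. *Ntf-2r*, a retroposed copy of the nuclear transport gene *Ntf-2*, differed by 0.40, while *Ntf-2* itself, on the X, differed by 0.01. Muscle was represented by *up*, the troponin T gene, and by *pncr003:2L*, a small transcript whose short peptides inhibit the calcium pump of muscle. *up* had 10.49 ± 0.13 in MLX and 10.27 ± 0.11 in CDX males, and *pncr003:2L* had 9.37 ± 0.12 and 9.03 ± 0.19 in the same treatments. The rest were *dikar*, *CG34171* and the X-linked *CG15894*, at differences of 0.28, 0.26 and 0.24. Apart from *egh*, 8 of these genes had further probe sets, and those differed by between -0.04 and 0.08, less than the probe set named. In *RN-tre*, *skd*, *dikar*, *rdx* and *nwk* all further probe sets were brighter. Those of *dikar* and *nwk* had mean levels of 7.20 and 9.34 over all arrays, against 4.91 and 5.90 in MLX males for the probe sets named. The differences given for these genes thus rest on a dimmer probe set chosen by its p.

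The named genes lower in MLX males, of which none passed the adjusted test, included several enzymes of metabolism and defence. *Cyp4s3*, an X-linked cytochrome P450, had 6.26 ± 0.26 in MLX against 6.67 ± 0.12 in CDX males (SD, n = 6 arrays), and *Ugt37A3*, which attaches sugars to small molecules, had 6.37 ± 0.08 against 6.73 ± 0.23. *Sid*, a nuclease induced by stress, differed by -0.42 (standard error 0.14), and *Bcat*, which starts the breakdown of branched-chain amino acids, by -0.18. The X-linked *yin*, a transporter of short peptides, differed by -0.17. Among genes of signalling and control were *CCKLR-17D3*, a receptor for the satiety peptide drosulfakinin, at -0.20, *inc*, an adaptor for protein degradation needed for normal sleep, at -0.13, and *Dr*, a homeodomain factor, at -0.41. *fd102C*, a forkhead factor, had 4.13 ± 0.11 in MLX and 4.35 ± 0.04 in CDX males and was the 1 named gene on chromosome 4. It was dim in all arrays. *Ttc26*, which acts in the transport of material along cilia, differed by -0.33. The others were *CG9981*, *CG16898*, *CG14785*, *CG1773*, *CG3706*, *CG43386*, *Tango4* and *CG1575*, with differences from -0.62 to -0.19. Second probe sets of *CG43386* and *inc* differed by -0.00072 and -0.10.

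**Figure D2:**
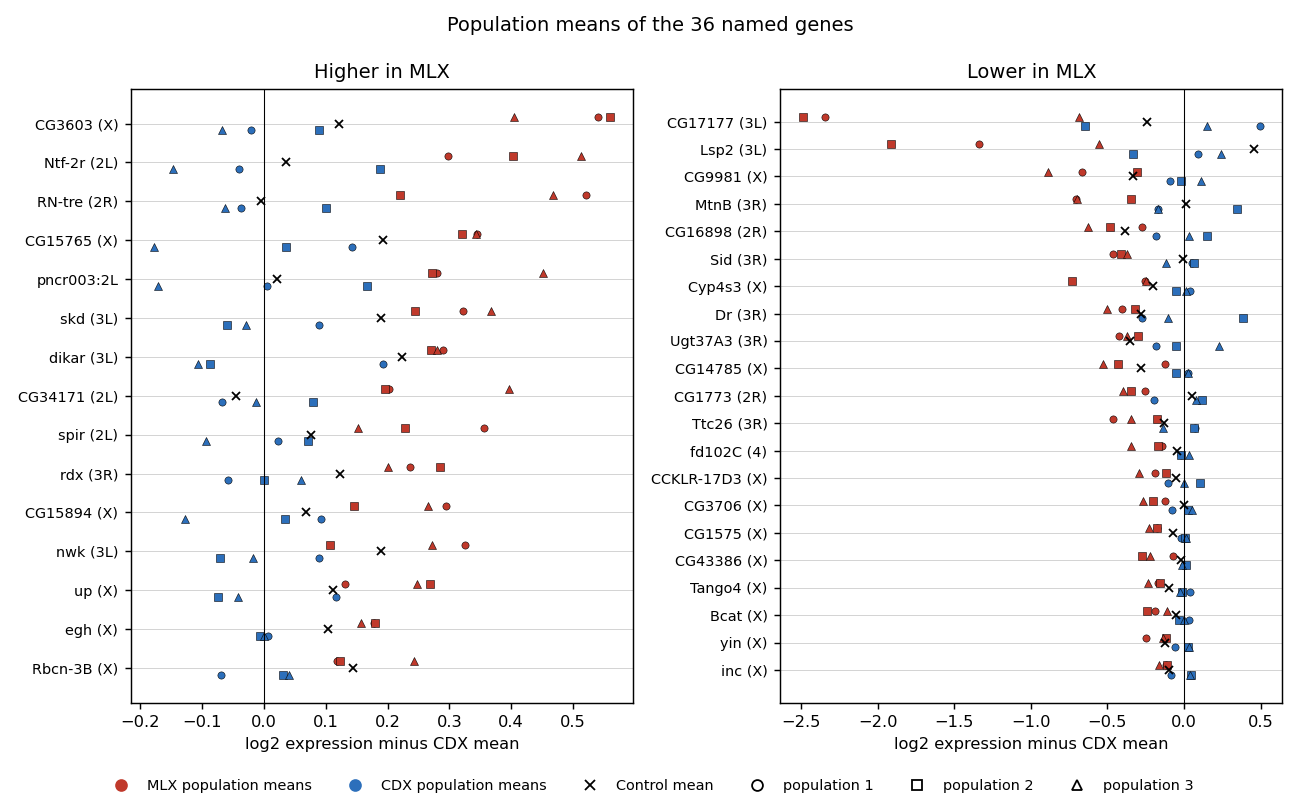
Population means of the 36 named genes, as log2 expression minus the CDX mean of each gene (x axis), for MLX and CDX populations and the Control mean. The genes (y axis, with chromosome) were chosen for means that do not overlap between MLX and CDX, and the Control mean falls between those of MLX and CDX in 31 of them.

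The evolved chromosome itself was examined next. Of 2188 probe sets on the X, 17 had an unadjusted p under 0.01 (0.777%), 6 higher and 11 lower in MLX males, against 48 of 11267 on chromosomes 2 and 3 (0.426%) and 0.453% of all probe sets. At an unadjusted p under 0.05 the X held 85 (3.88%) and chromosomes 2 and 3 held 268 (2.38%). Population means did not overlap in 7.18% of X-linked and in 5.71% of autosomal probe sets. These shares describe the chromosomes, since genes within them are not independent and no test of the difference was made. The X as a whole was not shifted, as 49.0% of its probe sets were higher in MLX males and the median difference was -0.0013, against 52.6% and 0.0040 on chromosomes 2 and 3. Relative to the autosomes the X lay at 0.0092, -0.0088 and -0.0108 in the MLX populations 1, 2 and 3 and at -0.0005, 0.0045 and 0.0001 in those of CDX. These overlap, and the difference of -0.0048 had a two-sided exact permutation p of 0.5 over populations, where the design allows no p below 0.1. Of the other arms, 2L had 13 probe sets at an unadjusted p under 0.01 (0.528%), 2R had 8 (0.293%), 3L had 13 (0.488%) and 3R had 14 (0.411%).

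The 17 X-linked genes did not lie together. When 1873 X-linked genes were put in order along the chromosome, the genes at an unadjusted p under 0.01 fell in 9 of 10 equal segments, with 4 in the segment farthest from the centromere, which holds *CG3706*, *CG14785*, *inc* and *Rbcn-3B*. The segment next to the centromere held 0. The median difference in the segments was between -0.013 and 0.0054. The nearest 3 measured genes on each side of each named gene gave 102 neighbours, and 51 of them had the same sign as the named gene. Only 3 neighbours had an unadjusted p under 0.05, of which 2 had the same sign. Thus the neighbours of *CG3603* lay between -0.10 and 0.05, and those of *CG15765* between -0.10 and 0.06. *inc* was the gene whose 6 neighbours all went the same way, with a median of -0.05.

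**Figure D3:**
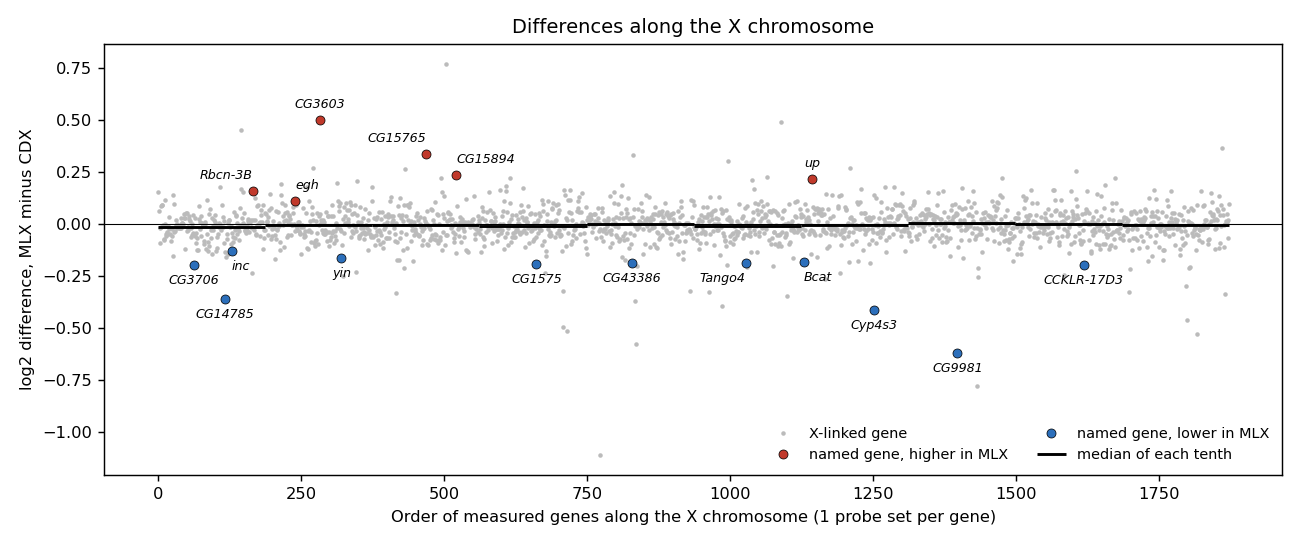
Log2 difference between MLX and CDX males (y axis) of 1873 X-linked genes in their order along the chromosome (x axis), 1 probe set per gene, with the 17 named genes marked and the median of each of 10 segments as a line. The named genes are scattered, and the medians of the segments stay close to 0.

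On chromosome 4, 53 of 82 probe sets were higher in MLX males (64.6%), with a median of 0.022. Relative to the other autosomes, chromosome 4 lay at -0.0052, -0.0177 and 0.0581 in MLX populations 1, 2 and 3 and at -0.0148, -0.0303 and 0.0118 in the CDX populations. MLX population 3 was above the rest and the other MLX populations were within the range of CDX. The difference of 0.023 had a two-sided exact permutation p of 0.6 over populations, and it was -0.00032 without MLX population 3. Of 9 genes of dosage compensation 4 were higher and 5 lower in MLX males, all between -0.03 and 0.07, with *msl-3*, a subunit of the complex, at 0.07 (standard error 0.05). Of 7 Y-linked genes 4 were higher and 3 lower. *kl-2*, a dynein heavy chain of the sperm tail, had 4.31 ± 0.13 in MLX and 4.41 ± 0.07 in CDX males (SD, n = 6 arrays), with population means that did not overlap. Among 17 genes of heterochromatin 13 were higher and 4 lower, with a median of 0.022 and 0 at an unadjusted p under 0.05. Of 14 genes of sex determination 5 were higher and 9 lower, and *gro*, the corepressor Groucho that takes part in counting X-chromosomes, had 6.92 ± 0.23 in MLX, 7.25 ± 0.07 in CDX and 7.56 ± 0.38 in Control males. Over all 11982 genes, each by its brightest probe set, 51.2% were higher in MLX, the median was 0.0018, and 2.47% had an unadjusted p under 0.05.

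The muscle genes of the list were higher in MLX males almost throughout, by small amounts. Missing from it were *Mhc*, *Act57B*, *wupA*, *TpnC47D* and *Tm1*, as none had a probe set named for it alone. Of the 26 genes measured of the sarcomere and its attachment 25 were higher and 1 was lower in MLX, with a median of 0.069 against 0.0018 over all genes. Population means did not overlap in 7 of them, all higher in MLX, against 335 higher and 340 lower of all 11982 genes. The thin filament was represented by *up* and by *Tm2*, a tropomyosin, which had 11.61 ± 0.05 in MLX and 11.51 ± 0.09 in CDX males (SD, n = 6 arrays). The giant elastic protein *sls* had 10.32 ± 0.14 against 10.18 ± 0.10, and *Prm*, the paramyosin core of the thick filament, had 11.58 ± 0.12 against 11.46 ± 0.10. Only *up* had an unadjusted p under 0.05. The largest differences, 0.44 in *TpnC4*, a troponin C, and 0.33 in *fln*, a protein of flight muscle thick filaments, had large standard errors of 0.31 and 0.32. *Strn-Mlck*, a kinase of the myosin light chain family, was the 1 gene below 0, at -0.01. As a median over the genes, relative to the mean of each, the list lay at 0.052, 0.035 and 0.032 in MLX and at -0.018, -0.056 and -0.035 in CDX populations 1, 2 and 3. Of the 30 lists examined, 1 had population medians all higher in MLX than in CDX, namely muscle, 2 had them all lower and 27 overlapped, so that few lists stood apart and nothing particular to muscle is read from this. Control populations 1, 2 and 3 lay at 0.007, -0.027 and -0.00013, population 2 within the range of CDX and the others between the treatments. The median was between 0.065 and 0.091 in the alternatives tried. It was 0.091 with the 3' to 5' measure of the arrays in the fit and 0.087 without MLX population 1.

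Genes of the respiratory chain and citrate cycle were also mostly higher in MLX males, 30 of 35, with a median of 0.033, but the populations overlapped. Their medians were 0.107, 0.040 and -0.041 in MLX and -0.094, 0.086 and 0.001 in CDX populations 1, 2 and 3. *COX5A*, of cytochrome oxidase, had 13.48 ± 0.09 in MLX and 13.40 ± 0.10 in CDX males. With the same measure in the fit, without MLX population 1 or without CDX population 1, the median lay below 0, the lowest being -0.026, so that its direction depended on these settings. Glycolysis had 8 of 12 genes higher, and its median of 0.018 changed sign in 4 alternatives, while *Gpdh1*, which moves electrons from glycolysis to the mitochondrion, was lower at -0.17 (standard error 0.08).

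Subunits of the proteasome, the complex that degrades proteins, were lower in MLX males in 25 of 28 cases, with a median of -0.043. Population means did not overlap in 8, all lower in MLX, against 340 lower of all 11982 genes and 3.00% of all probe sets. *Rpn3*, of the regulatory lid, had 10.60 ± 0.05 in MLX and 10.69 ± 0.05 in CDX males, and *Prosbeta6*, of the catalytic core, had 11.59 ± 0.05 and 11.66 ± 0.07 in the same treatments (SD, n = 6 arrays). None had an unadjusted p under 0.05, the differences running from -0.085 to 0.068. The 3 subunits above 0 included *Rpt3R* and *Rpt4R*, copies used in the testis. The medians of the list were -0.036, 0.012 and -0.003 in MLX and 0.018, 0.070 and 0.037 in CDX populations 1, 2 and 3, which makes it 1 of the 2 lists of 30 with all MLX medians lower. Control populations lay at 0.022, -0.063 and -0.045, on both sides of MLX. Ribosomal protein genes, of which 25 of 32 were lower, had a median of -0.013, which was 0.0050 without CDX population 2.

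Genes that handle metals and iron were lower in MLX males in 15 of 18 cases, with a median of -0.031. It was the other of the 2 lists of 30 with all MLX population medians lower, but only just, the highest in MLX being 0.0091 and the lowest in CDX 0.0094. The larger differences lay in 3 genes. Beside *MtnB*, the metallothionein *MtnD* had 9.91 ± 0.40 in MLX and 10.45 ± 0.32 in CDX males, a difference of -0.53 (standard error 0.18). *Tsf1*, the transferrin that carries iron in the haemolymph and lies on the X, had 13.05 ± 0.20 against 13.29 ± 0.14. These 3 had an unadjusted p under 0.05, against 148 higher and 148 lower of all genes. The metal sensor *MTF-1*, which switches on metallothionein genes, was at -0.13 (standard error 0.07). *MtnA* was at 0.02 and *MtnC* at -0.08, so that the 4 metallothionein genes differed in size and sign.

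The fat body list was lower in 15 of 19 cases, with a median of -0.048 and 5 genes with non-overlapping population means, all lower in MLX, against 340 lower of all 11982 genes. Beside *Lsp2* these were genes of fat storage and synthesis. *Lsd-2*, a coat protein of lipid droplets on the X, had 10.55 ± 0.09 in MLX and 10.73 ± 0.16 in CDX males. *ACC*, the first enzyme of fatty acid synthesis, had 12.39 ± 0.09 and 12.53 ± 0.09, and the fatty acid synthase *FASN2* had 10.96 ± 0.06 and 11.07 ± 0.08, in the same treatments. *bmm*, the lipase that releases stored fat, was at -0.16. The populations overlapped as medians of the list, from -0.080 to 0.024 in MLX and from -0.016 to 0.047 in CDX. In hormone control of the stores, *AkhR*, the receptor of adipokinetic hormone, was at -0.27 (standard error 0.12), while the list of 15 genes had 9 higher and 6 lower.

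Among genes of detoxification, 54 of 80 cytochrome P450 genes were lower in MLX males (median -0.050), as were 22 of 34 glutathione S-transferases (-0.025) and 21 of 35 UDP-glycosyltransferases (-0.030). The last of these medians was 0.020 without MLX population 3, and without CDX population 2 the P450 median was -0.019 and that of the glutathione S-transferases -0.00044. At an unadjusted p under 0.05 there were 1 P450 higher and 4 lower, and 2 glycosyltransferases lower, which were 6.25% of the P450 genes and 5.71% of the glycosyltransferases, against 2.47% of all genes. *Cyp309a1* had 8.46 ± 0.06 in MLX and 8.79 ± 0.10 in CDX males (SD, n = 6 arrays) and *Cyp6a14* had 7.39 ± 0.17 and 7.59 ± 0.09. *Cyp4d21*, or sxe1, which is expressed in male heads and needed for normal courtship, went the other way, with 10.89 ± 0.19 and 10.51 ± 0.31. *GstD2* differed by -0.85, with a standard error of 0.52, as CDX populations 2 and 3 were high at 9.51 and 9.09 and CDX population 1 was at 7.64. CDX population 2 had the highest median of the 6 populations for all 3 families, at 0.114, 0.096 and 0.093. Digestive enzymes were lower in 30 of 41 cases with a median of -0.073, which turned to 0.022 without CDX population 2. In the gut protease *Jon44E* the populations did not overlap, with 9.50, 9.97 and 9.87 in MLX and 10.10, 10.45 and 10.60 in CDX.

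**Figure D4:**
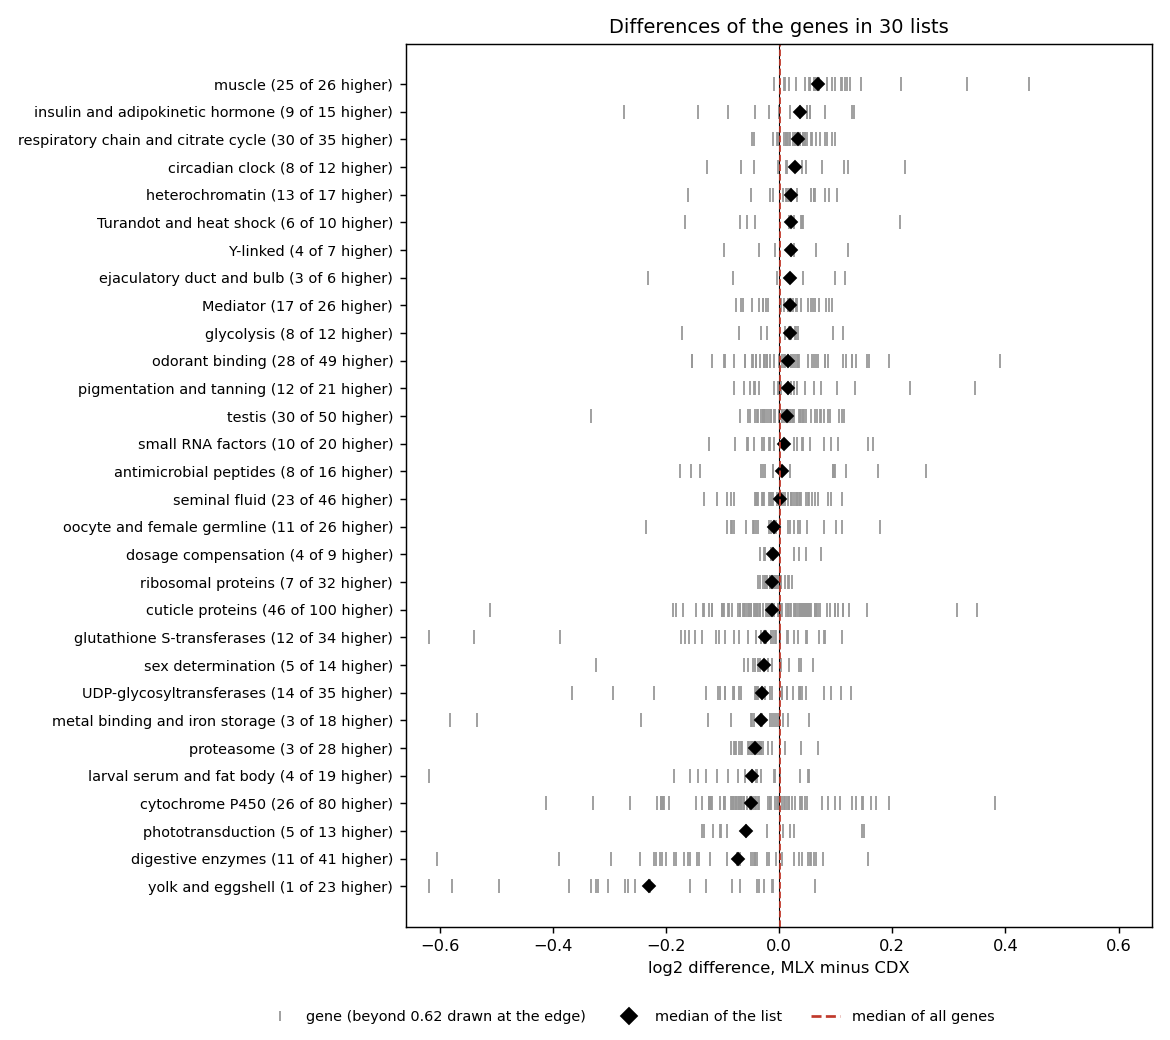
Log2 difference between MLX and CDX males (x axis) of each gene in 30 lists, ordered by the median of the list (diamonds), with the number of genes higher in MLX beside the name (y axis). Muscle, at 0.069, and yolk and eggshell, at -0.23, are at the ends, and no member of any list passed the adjusted test.

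Genes of male reproduction were spread to both sides. Of the 46 seminal fluid genes of the list, which does not hold *Sfp24Bb*, 23 were higher and 23 lower in MLX males, with a median of 0.002, all between -0.13 and 0.11, and 0 had an unadjusted p under 0.05. *SP*, the sex peptide that alters female behaviour after mating, had a median of 13.93 in MLX and 13.94 in CDX males. The median of the list depended on the populations, being -0.11 without CDX population 2 and 0.080 without CDX population 1, and it changed sign in 4 of 13 alternatives. Of 50 testis genes 30 were higher and 20 lower with a median of 0.014, which changed sign in 3 alternatives, and 0 had an unadjusted p under 0.05. In the eye, *rdgA* and *rdgB*, X-linked genes of lipid turnover in phototransduction, were higher in MLX at 0.15 each, while 8 of the 13 genes measured of this pathway were lower. That list lacks *ninaE*, *norpA*, *ninaC* and *Rh2* to *Rh6*, which had no probe set named for them alone. Of 26 Mediator subunits 17 were higher, with a median of 0.019, and no subunit other than *skd* is among the named genes. Antimicrobial peptides had 8 higher and 8 lower, small RNA factors 10 and 10, odorant binding proteins 28 and 21, cuticle proteins 46 and 54, pigmentation genes 12 and 9, circadian genes 8 and 4, the Turandot and heat shock genes 6 and 4, and oocyte genes 11 and 15. *gro*, *Cpr97Ea*, *TwdlE*, *Obp50e*, *dco* and *aub* were the members of these lists and of sex determination with an unadjusted p under 0.05, at differences of -0.32, -0.17, 0.35, -0.15, 0.12 and 0.17. They made up 7.14% of the sex determination, 2% of the cuticle, 2.04% of the odorant binding, 8.33% of the circadian and 5% of the small RNA list. The share was 2.47% of all genes and 0% in the other lists of this group, so these few genes are only listed.

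Part of the difference between the treatments lay in a single population. This was looked for after the values were seen, as probe sets in which both arrays of a population were more than 0.5 above or below all 10 other arrays of MLX and CDX. MLX population 1 had 6 higher and 22 lower probe sets of this kind, MLX population 3 had 1 and 3, CDX population 1 had 1 and 0, CDX population 2 had 0 and 2, and MLX population 2 and CDX population 3 had 0. The 22 probe sets low in MLX population 1 covered 18 named genes. They were *CG30427*, *CG5326*, *CG2663*, *CG18301*, *Sfp24Bb*, *Ptr*, *CG43218*, *CG3513*, *CG15649*, *Cyp312a1*, *sit*, *CG7341*, *CG9747*, *CG13893*, *CG42237*, *Ebp*, *CG16820* and *CG10657*, of which 5 are described. *CG30427*, a fatty acyl-CoA reductase, had 7.44 and 7.60 in the 2 arrays of MLX population 1, against 10.25 to 10.71 in the other MLX arrays and 10.18 to 10.88 in CDX males. *CG5326*, a fatty acid elongase, had 9.12 and 9.37 there against 11.03 to 11.44 in the other MLX arrays and 10.99 to 11.51 in CDX males, and *sit*, also an elongase, had 7.62 and 7.23 against 8.40 to 8.74 and 8.37 to 8.64. *Ebp*, a main protein of the ejaculatory bulb, had 14.00 and 14.16 against 14.77 to 14.83 in the other MLX arrays and 14.73 to 14.83 in CDX males. The seminal fluid gene *Sfp24Bb* had 12.14 and 12.45 against 13.92 to 14.07 and 13.66 to 14.04. That both arrays of the population were low in each of these genes, without overlap with the others, follows from the rule of choice.

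In Control males, which did not enter this choice, population 1 had the lowest mean of the 3 Control populations in all 22 of these probe sets, though above that of MLX population 1 in all 22. *CG30427* had 9.33 and 8.96 in Control population 1, against 10.30 to 11.02 in the other Control arrays, and *Ebp* had 14.59 and 14.54 against 14.72 to 14.85. CDX population 1 was the lowest of CDX in 12 of 22. The shares over all probe sets are not given beside these counts, and the 22 probe sets are not all of separate genes. The counts are therefore descriptive only. Whether the numbers of the populations stand for anything shared is not given in the labels. The 22 probe sets were chosen for low values in MLX population 1. Leaving it out must therefore move their difference upward, and the values without it are not a test. Without MLX population 1 the median difference of the 22 probe sets was 0.07, against -0.36 with all arrays. *CG30427* then differed by 0.05 in place of -0.96, and *Ebp* by 0.01 in place of -0.23. A further probe set of *CG30427* differed by 0.01 and one of *CG5326* by 0.04 with all arrays, so that not every probe set of these genes showed the difference. Among the 6 probe sets high in MLX population 1 were *TotC*, a stress-induced peptide, with 10.83 and 11.14 against 7.61 to 8.88 in the other MLX arrays and 8.16 to 9.67 in CDX males, and *PPO1*, a phenoloxidase of the melanization response. In MLX population 3, *sphe*, a serine protease homologue on the X that acts in the response to infection, had 6.61 and 5.96, against 8.17 to 8.83 in the other MLX arrays and 7.76 to 8.96 in CDX males.

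**Figure D5:**
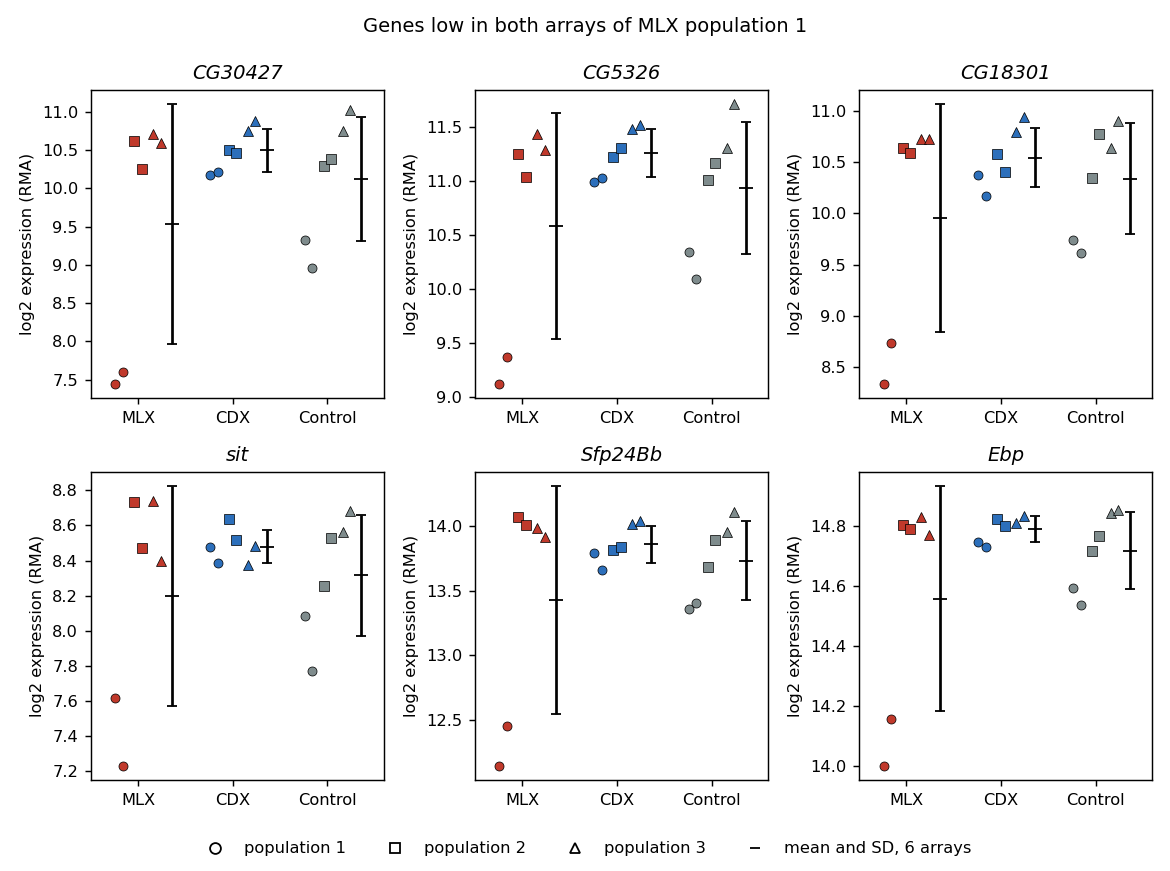
Log2 expression (y axis) of 6 genes per array in MLX, CDX and Control males (x axis), with symbols for the populations and bars for the mean and SD of 6 arrays. Both arrays of MLX population 1 are below all other arrays, which the choice of genes required for those of MLX and CDX. In these genes Control population 1 (circles) is the lowest of the Control populations.

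The populations of MLX were also somewhat more spread than those of CDX over all probe sets, with a median SD between population means of 0.085 in MLX and 0.077 in CDX males. The arrays within a population were more spread as well, with a median SD of 0.10 in MLX and 0.087 in CDX males. On the X the SDs between population means were 0.086 and 0.073, and on chromosomes 2 and 3 they were 0.085 and 0.079. With 3 populations each, the difference between these spreads was not tested. The median distance of a population from the mean of the other treatment was 0.076, 0.056 and 0.083 in MLX populations 1, 2 and 3 and 0.070, 0.071 and 0.064 in those of CDX. MLX population 1 had 39 probe sets more than 1 away from the CDX mean, MLX population 2 had 8 and MLX population 3 had 24, against 11, 16 and 16 in CDX populations 1, 2 and 3 from the MLX mean.

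The probe sets with large differences showed this spread directly. Of the 37 that differed by more than 0.5, 10 were higher and 27 lower in MLX males, and only 10 had population means that did not overlap. Their median standard error was 0.38, against 0.07 over all probe sets, and 7 had an unadjusted p under 0.01. *CG4269* differed by 0.95, with population means of 10.63, 9.74 and 7.89 in MLX and 9.91, 8.06 and 7.44 in CDX, and *CG15369*, on the X, differed by -1.11, with 6.91, 7.16 and 5.46 in MLX and 7.82, 8.29 and 6.77 in CDX. In both genes the populations of the 2 treatments overlapped. Between populations of the same number, MLX was above CDX in each pair for *CG4269* and below it in each for *CG15369*. Whether the numbers pair the populations is not given in the labels. Of the genes higher in MLX by more than 0.5, *CG3603* and *CG14137* had population means that did not overlap, and the standard error of *CG3603*, 0.09, was the smallest of the 37.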

How the data were processed

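Total RNA of whole males was hybridised to the Affymetrix GeneChip Drosophila Genome 2.0. The authors ran RMA in affy, of a version not stated in the labels or methods, and deposited log2 values. The file held 18952 probe sets on 18 arrays, mapped to treatments by their labels, and 183 Affymetrix controls were left out of the tests. No depth applies to arrays, and their number limits the precision. Replicates are separate populations per the labels, and arrays within a population were not taken as independent.

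Treatment was fitted to all 18 arrays in limma 3.58.1 (R 4.3.3) with duplicateCorrelation over the 9 populations (correlation 0.192) and eBayes, contrast MLX minus CDX, with Benjamini-Hochberg adjustment over 18769 probe sets and a threshold of 0.05. All unadjusted p-values for transcripts come from this fit. Shifts of chromosomes and array measures were tested by exact permutation. Gene names came from the platform's annotation and chromosome arms from RefSeq (Release 6 plus ISO1 MT), with no coordinates printed and no sequence tables used. A gene with several probe sets was represented in lists by the brightest. Genes with no probe set named for them alone are missing from the lists.

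Genes were named that had 1 symbol, an unadjusted p under 0.01 and population means that did not overlap, 12 per direction and all on the X and chromosome 4. A gene was named by the probe set that met these conditions, and by that with the smallest p where several did. From each of 30 lists, genes were drawn from the 4 with the smallest p, and other genes are given after their values were seen. The comparison, the lists and the rules were chosen with earlier results of these data known. The fit was tested on simulated data. A total of 21 alternatives of the fit were tried. The rest was done in Python 3.11.15, using scipy 1.17.1, numpy 2.4.6, matplotlib 3.10.9 and pandas 2.3.3.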

Additional observations from a re-analysis of the deposited data

Results flagged for a closer look

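In the genes given here, the values of 114 groups of 6 arrays were examined for an array far from the others of its treatment, and 4 such arrays were found, where chance gives about 1 in 20 groups. *CG15894* was at 4.49 in CDX array 3-1, below the next array at 4.73. *CG17177* was at 4.40 in CDX array 2-1, with the next at 5.87. The lipid droplet gene *Lsd-2* was at 11.05 in CDX array 3-2, above the next array at 10.73, and the cuticle gene *TwdlE* was at 5.19 in MLX array 1-2, with the next at 4.57.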

How the results depend on the processing

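Over 21 alternatives, 18 gave the same count of 0 transcripts after adjustment. Arrays taken as independent gave 1, *CG3603* (adjusted p = 0.0499 from limma), and population as a fixed effect, whose error comes from the 2 arrays within each population alone, gave 21, of which 11 probe sets were those set apart by MLX population 1. Leaving out a population gave from 0 to 1 transcripts, the 1 being the unnamed probe set with the largest difference, without MLX population 1 (adjusted p = 0.00374 from limma). For this probe set MLX population 1 was the MLX population nearest to CDX, so that leaving it out must enlarge the difference. The 85 transcripts at an unadjusted p under 0.01 became 160 with independent arrays, 317 with population as a fixed effect, 155 with the 3' to 5' difference as a covariate and 18 among genes in the upper 50% by interquartile range, where 5991 probe sets were tested. Leaving out a population gave from 50 to 177, with 50 without CDX population 3, 177 without CDX population 1 and 134 without MLX population 3. Whether the numbers pair the populations was not settled. Same-numbered populations of MLX and CDX deviated together with correlations of -0.137, 0.159 and 0.136, against -0.330 to 0.217 for different numbers. Those of MLX and Control had 0.384, 0.084 and 0.239, and those of CDX and Control -0.054, 0.081 and 0.176. The number as a replicate block gave 140 transcripts at an unadjusted p under 0.01 and 0 after adjustment. The smallest adjusted p from limma was then 0.0939. Chromosome 4 relative to the other autosomes was 0.023 with all arrays and between -0.00032 and 0.038 when a population was left out, the lowest without MLX population 3. The 36 named genes had the same sign in each alternative run for them, and *CG3603*, *CG15765*, *CG17177* and *Lsp2* passed with population as a fixed effect (adjusted p = 0.0395, 0.0427, 0.0395 and 0.00239 from limma). Of the medians of gene lists in the alternatives, 370 moved by less and 20 by more than the spread between populations, and the medians of muscle, proteasome, cytochrome P450, glutathione S-transferases, metals, fat body and Mediator had the same sign in all 13 settings. Some came close to 0, the glutathione S-transferases at -0.00044 and cytochrome P450 at -0.019 without CDX population 2, and Mediator at 0.0033 with the yolk and eggshell mean in the fit. Without the 6 arrays highest in yolk and eggshell, which was tried after seeing the data, 91 transcripts had an unadjusted p under 0.01 and 0 passed. The cause of these changes was not tested.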
